A study of Mus musculus with 6 samples.

Results

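EGR1, EGR2, EGR3, NR4A1, NR4A2 and NR4A3 are transcription factors of the immediate early class, and the genes that encode them were examined here for Ikaros binding in mouse natural killer (NK) cells. They were taken by name from the authors' gene column in 3 lists of chromatin immunoprecipitation sequencing (ChIP-seq) peaks for Ikaros, the zinc finger protein encoded by Ikzf1. Of the 6 genes, 2 were named for a peak, Egr1 and Nr4a3, and 4 were not, namely Egr2, Egr3, Nr4a1 and Nr4a2. Among all protein-coding genes, 2089 of 21900 (9.54%) were named for a peak of any list. Together Egr1 and Nr4a3 accounted for 6 of 4111 peaks. Each list came from 1 wild type (WT) library of splenic NK cells grown in 50 ng/ml IL-15, a cytokine that sustains NK cells. The series also held 3 libraries from Ikzf1 knockout (KO) NK cells, in which deletion was tied to NKp46 and so reaches only cells that have expressed that receptor. KO libraries were not analysed here, so no value below is a comparison of genotypes. Strain, sex and age are not given in the sources used here, nor whether libraries came from separate animals.

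Immediate early genes are switched on within minutes of a stimulus from factors already present in the cell. EGR proteins are zinc finger activators induced through the ERK cascade, serum response factor (SRF) and its ETS partners, and the co-repressors NAB1 and NAB2 bind EGR1 and hold it back. NR4A proteins are orphan nuclear receptors whose genes respond to calcium and cAMP signals through CREB and MEF2. In lymphocytes, mostly from work on T cells, EGR2, EGR3 and NR4A factors are known for restraining activation.

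Peaks numbered 685, 2084 and 1342 for WT replicates 1, 2 and 3, and the median fold enrichments were 5.10, 4.73 and 4.99. Fold enrichment is the authors' linear ratio of a peak's signal over background within its own list. Percentiles below are ranks of that ratio within 1 list, with 100 for the strongest peak. A region is a set of peaks that overlap by at least 1 base, of which 500 held peaks of all lists, 584 of exactly 2 and 1442 of 1. Peak lists give no read counts, so the depth is unknown, and a gene with no listed peak cannot be told apart from one bound too weakly to be called.

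The promoters of the 3 NR4A genes and of Egr2 are printed because they are the stretches where no peak was listed, and they share a sequence feature. Windows are RefSeq promoters of build GRCm38.p6, from 250 bases before to 50 after an annotated start, on the gene's strand. Capitals mark TGACG or its reverse complement CGTCA, the core of the cAMP response element that CREB binds. Nr4a1 (chr15:101266596-101266895, plus strand), Nr4a2 (chr2:57123954-57124253, minus strand) and Nr4a3 (chr4:48045055-48045354, plus strand) have 1 window each. Egr2 has 5 windows, and the one shown (chr10:67537619-67537918, plus strand) is the first of those that hold the letters.
Nr4a1: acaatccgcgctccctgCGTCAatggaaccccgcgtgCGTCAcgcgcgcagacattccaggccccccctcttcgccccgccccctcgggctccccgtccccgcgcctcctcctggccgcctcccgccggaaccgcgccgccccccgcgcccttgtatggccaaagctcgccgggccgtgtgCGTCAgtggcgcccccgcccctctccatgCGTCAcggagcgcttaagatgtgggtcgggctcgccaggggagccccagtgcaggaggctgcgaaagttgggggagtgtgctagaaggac
Nr4a2: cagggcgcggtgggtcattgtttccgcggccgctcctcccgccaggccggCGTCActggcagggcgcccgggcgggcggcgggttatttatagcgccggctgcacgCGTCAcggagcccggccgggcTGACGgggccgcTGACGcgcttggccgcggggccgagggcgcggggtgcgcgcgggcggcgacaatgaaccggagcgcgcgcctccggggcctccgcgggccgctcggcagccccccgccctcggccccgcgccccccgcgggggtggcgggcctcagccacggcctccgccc
Nr4a3: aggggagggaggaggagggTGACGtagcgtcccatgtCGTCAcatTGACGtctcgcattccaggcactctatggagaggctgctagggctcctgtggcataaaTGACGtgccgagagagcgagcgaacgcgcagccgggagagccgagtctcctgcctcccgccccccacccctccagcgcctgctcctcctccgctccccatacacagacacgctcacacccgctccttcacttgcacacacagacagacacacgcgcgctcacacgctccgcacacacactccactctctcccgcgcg
Egr2: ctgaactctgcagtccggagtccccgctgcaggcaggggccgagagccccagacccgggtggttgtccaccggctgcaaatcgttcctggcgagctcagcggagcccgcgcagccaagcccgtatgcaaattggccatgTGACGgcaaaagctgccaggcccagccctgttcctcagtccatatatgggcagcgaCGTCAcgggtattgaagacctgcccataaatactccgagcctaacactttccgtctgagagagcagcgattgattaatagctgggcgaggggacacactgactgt

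Each NR4A window held 4 copies of the TGACG core, counted over both strands. That many or more were found in 76 of 32851 promoter windows (0.231%), and at least 1 copy in 20.8%. The Egr2 window held 2 copies, and 2 of the 5 Egr2 windows held none. This search was chosen after the windows had been seen, so the counts describe these promoters and test nothing. The letters GGGAA, the core bound by Ikaros, were absent on both strands from all 3 NR4A windows and from 4 of the 5 Egr2 windows, and the remaining one, at chr10:67535249-67535548, held 2. Over all windows, 62.7% held GGGAA or TTCCC at least once. A match of letters is not a binding site, and a window without them says nothing about Ikaros. Egr1 and Egr3 windows were not used here.

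Egr1 (ENSMUSG00000038418), which encodes the founding EGR factor, had a peak in each of the 3 lists, and these overlapped in 1 region at chr18:34859834-34860703 (mm10). Fold enrichments were 4.54, 4.39 and 4.08 in WT replicates 1, 2 and 3, with −log10 q values of 2.76, 3.12 and 2.24. All 3 values lay under the median of their list, at percentiles of 26.3, 37.5 and 17.5. The peaks were 201, 248 and 870 bp wide and had 201 bp in common, the whole of the replicate 1 peak. The 3 lists thus placed the peak in the same stretch, and the list of replicate 3 gave it the widest outline.

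The Egr1 region lay outside the RefSeq span of the gene, which runs from 34861207 to 34864956. Gaps between peak and span were 553, 538 and 503 bp in WT replicates 1, 2 and 3. The authors' distance to Egr1 was 0 in each list, and the gene model behind it is not given in the sources used here. The list of replicate 2 alone held another Egr1 peak, inside the RefSeq span at chr18:34861623-34861829, with a fold enrichment of 3.97 at percentile 20.2. Exons and introns were not assigned, as the gene table used gives none.

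Nr4a3 (ENSMUSG00000028341), which encodes the NOR1 receptor, had 1 region, at chr4:48047121-48047389, in the lists of WT replicates 2 and 3. Fold enrichments were 4.55 in replicate 2 and 4.86 in replicate 3, with −log10 q values of 3.25 and 3.33, and replicate 1 had no peak there. The shared stretch was 203 bp, the whole of the replicate 3 peak. Percentiles were 44.0 and 45.0, just under the median of each list. The peaks lay within the gene, starting 1816 and 1877 bp after the annotated start and ending 2084 and 2079 bp after it, so neither reached the promoter window printed above. In replicate 1, the nearest peak to Nr4a3 was 691 kb away.

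**Figure D1:**
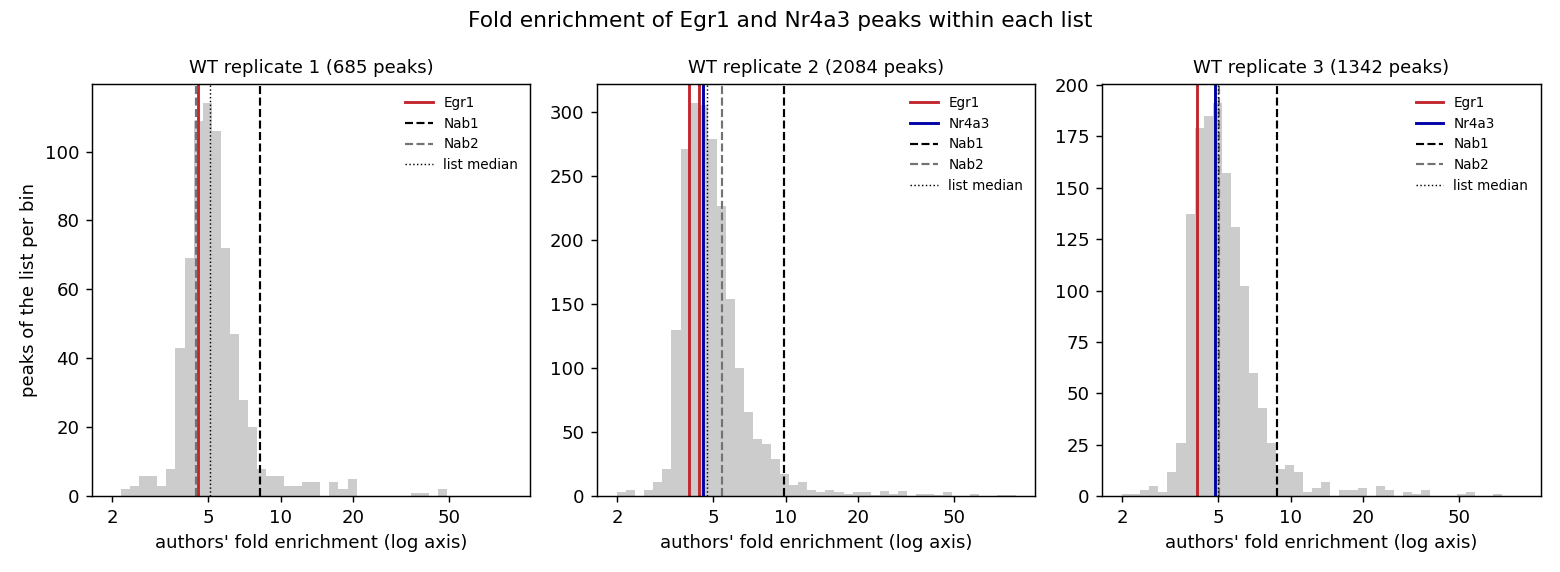
Histograms of the authors' fold enrichment (log axis) over all peaks of each WT list, with the Egr1 and Nr4a3 peaks as solid lines, those of the co-repressor genes Nab1 and Nab2 as dashed lines and the list median dotted. Every Egr1 and Nr4a3 line lies left of the dotted line, with percentiles between 17.5 and 45.0, while Nab1 lies in the right tail at 93.6, 96.4 and 94.0. Nab2 does not share that place, with percentiles of 24.1, 70.6 and 51.9 in WT replicates 1, 2 and 3.

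Of the 6 peaks named for an EGR or NR4A gene, 0 lay above percentile 50 of their list, and their median percentile was 31.9. Peaks in regions of all 3 lists had median percentiles of 55.9, 77.4 and 70.0 in WT replicates 1, 2 and 3. The Egr1 peaks were thus below the midpoint of the peaks that, like them, recurred in every list. With only peaks of −log10 q of 5 or more, which kept 40.1%, 36.4% and 43.4% of the lists, 0 of the 6 genes had a peak, and 3.77% of protein-coding genes had one in any list (1.86% in a region of 2 or more lists). With every list shortened to its 685 strongest peaks by q, Egr1 had a peak in replicate 1 alone, beside 4.61% of protein-coding genes with a peak in any list. At that length 0 of the 6 were in a region that lists shared, beside 2.33% of protein-coding genes. At shares this low, a count of 0 among 6 genes does not set them apart from other genes.

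Set against all genes, 2 of 6 members had a region in 2 or more lists, and 952 of 21900 protein-coding genes did (4.35%). In all 3 lists the counts were 1 of 6 members and 430 of 21900 genes (1.96%). List by list, 1 member was named in WT replicate 1, where 2.71% of protein-coding genes were. In replicate 2 it was 2 members beside 7.79% of genes, and in replicate 3 it was 2 members beside 5.52%. The members were chosen with earlier results known and are few, so no test of this share was made. Without WT replicate 2 or WT replicate 3, the count was 1 of 6, Egr1, beside 2.13% or 2.26% of protein-coding genes, since the Nr4a3 region rests on those 2 lists.

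**Figure D2:**
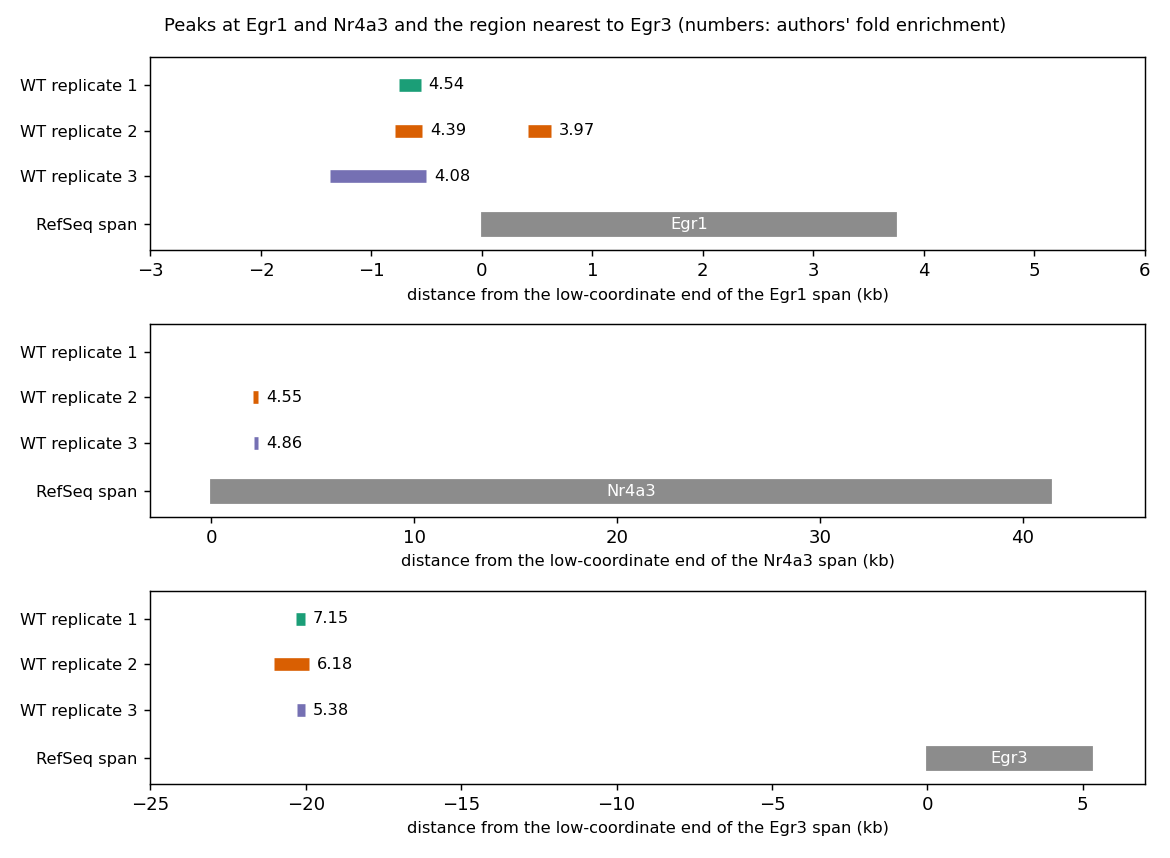
Peaks of WT replicates 1, 2 and 3 around Egr1, Nr4a3 and Egr3, drawn to scale as distance in kb from the low-coordinate end of the RefSeq span (grey bar), with the authors' fold enrichment beside each peak. The Egr1 peaks of all 3 lists stack just outside the span, the Nr4a3 peaks of replicates 2 and 3 lie inside it, and the region 20 kb from Egr3 has 7.15, 6.18 and 5.38.

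Egr3, which encodes a factor induced by calcium signals in lymphocytes, was not named for any peak, but a region in all 3 lists lay 20.0, 19.9 and 20.0 kb from its span. That region, at chr14:70056304-70057414, had fold enrichments of 7.15, 6.18 and 5.38 in WT replicates 1, 2 and 3. Its percentiles were 88.6, 82.7 and 61.2, each above those of Egr1 and Nr4a3 in the same list. The authors named Pebp4 and Gm33524 for it, and which gene it acts on, if any, was not measured. With any peak within 50 kb of a gene counted, Egr3 joins Egr1 and Nr4a3, which makes 3 of 6 members beside 12.1% of protein-coding genes for 2 or more lists, and 2 of 6 beside 5.51% for all lists.

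Around Egr1, the same 100 kb search found 2 more regions. One at chr18:34954681-34954989, named for the mitochondrial chaperone gene Hspa9, lay 89.7 to 89.8 kb from Egr1, with percentiles of 85.7, 88.6 and 69.7 in WT replicates 1, 2 and 3. The other, in replicate 1 only, was named for Etf1, which encodes a translation release factor, and lay 22.3 kb away at percentile 39.7. Within 100 kb of Egr2 and Nr4a1 no peak was listed, nor was any within 100 kb of Nr4a2, and around Nr4a3 there was none beyond its own region.

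Egr2, which with EGR3 restrains lymphocyte activation, lay 258 kb from the nearest peak in each list. Nr4a1, which encodes NUR77, lay 669 kb from the nearest peak in each list. For Nr4a2, which encodes NURR1, the gap was 3279, 992 and 114 kb in WT replicates 1, 2 and 3. The median gap over protein-coding genes was 857, 254 and 405 kb. Nr4a1 was thus nearer to a peak than the median gene in replicate 1 and farther in replicates 2 and 3. Egr2 was nearer in replicates 1 and 3 and close to the median in replicate 2. Nr4a2 was farther than the median gene in replicates 1 and 2 and nearer in replicate 3.

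**Figure D3:**
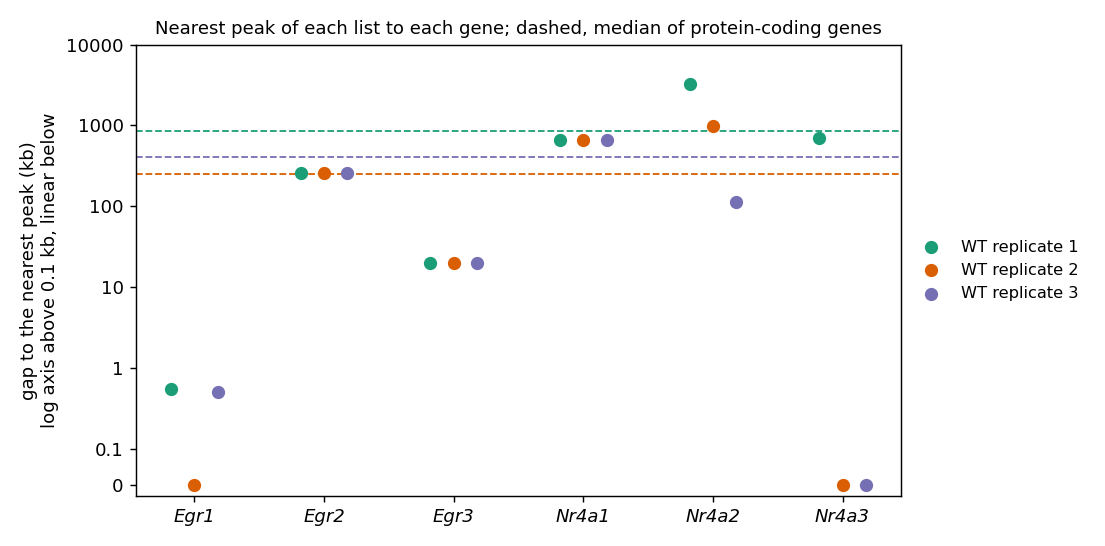
Gap in kb from each of the 6 genes to the nearest peak of WT replicates 1, 2 and 3, on an axis that is logarithmic above 0.1 kb and linear below, with dashed lines at the median gap of protein-coding genes in the list of the same colour. Egr1 and Nr4a3 sit at or near 0, except Nr4a3 in replicate 1, and Egr3 sits near 20 kb in all 3 lists.

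By the likeness of percentiles, the genes closest to Egr1 among 429 others with a region in all lists were Rbpj, Krcc1 and Smyd1. Rbpj, which encodes the DNA-binding partner of Notch, differed by a mean of 3.03 percentile points over 3 lists, with percentiles of 29.1, 43.0 and 16.8. Krcc1 and Smyd1 had the same percentiles in every list, 29.2, 36.6 and 7.08, and differed by 4.75 points each. They may thus stand for the same peaks and not be separate matches. For Nr4a3, over the 2 lists of replicates 2 and 3 and among 430 genes, the closest were Sfi1, Tnfaip8l1 and Capzb, at mean differences of 1.24, 1.85 and 2.13 points.

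The pathway around these genes was read from lists of 79 genes, chosen with earlier results of these data known. Of these 79, 33 were named for a peak of any list, beside 9.54% of protein-coding genes, 21 had a region shared by 2 or more lists (26.6%, beside 4.35%) and 7 in all lists (8.86%, beside 1.96%). Peaks of the 21 genes that lay in regions of 2 or more lists had median percentiles of 30.8, 56.8 and 63.0 in WT replicates 1, 2 and 3. All peaks in such regions had 52.6, 64.9 and 58.6. Without WT replicate 2 or WT replicate 3, 7 or 9 of the 79 genes had a shared region, beside 466 or 495 protein-coding genes.

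Both EGR co-repressor genes had a region in all 3 lists, and Egr4, the remaining EGR gene, had none. Nab1 had fold enrichments of 8.20, 9.85 and 8.78 in WT replicates 1, 2 and 3, at percentiles of 93.6, 96.4 and 94.0. Nab2 had 4.46, 5.44 and 5.06, at percentiles of 24.1, 70.6 and 51.9, and the authors named Nemp1 for the same peaks. Both regions overlapped the annotated promoter, at chr1:52500399-52500698 on the minus strand for Nab1 and at chr10:127666654-127666953 on the minus strand for Nab2. The Nab1 peaks covered 300 of the 300 bases in every list, and the Nab2 peaks covered 300, 61 and 300. Windows of Dusp2, Elk4 and Cish in the same table also had peaks of all lists on them. Printed are those of the co-repressor genes, that of Dusp2 (chr2:127335909-127336208, plus strand) and the Elk4 window (chr1:132007852-132008151, plus strand) that lacks GGGAA, so that windows with and without these letters can be read side by side. Capitals mark GGGAA or TTCCC.
Nab1: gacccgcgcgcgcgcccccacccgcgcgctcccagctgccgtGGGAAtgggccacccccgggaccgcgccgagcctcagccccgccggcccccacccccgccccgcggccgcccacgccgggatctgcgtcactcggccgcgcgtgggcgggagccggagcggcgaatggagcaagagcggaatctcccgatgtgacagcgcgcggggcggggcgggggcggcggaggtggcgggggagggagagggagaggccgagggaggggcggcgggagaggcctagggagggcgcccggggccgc
Nab2: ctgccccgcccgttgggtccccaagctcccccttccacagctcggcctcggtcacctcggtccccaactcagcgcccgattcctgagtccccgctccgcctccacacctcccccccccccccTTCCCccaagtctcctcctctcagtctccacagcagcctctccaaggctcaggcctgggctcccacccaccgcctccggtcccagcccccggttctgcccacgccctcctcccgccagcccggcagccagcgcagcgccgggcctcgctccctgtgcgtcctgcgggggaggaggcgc
Dusp2: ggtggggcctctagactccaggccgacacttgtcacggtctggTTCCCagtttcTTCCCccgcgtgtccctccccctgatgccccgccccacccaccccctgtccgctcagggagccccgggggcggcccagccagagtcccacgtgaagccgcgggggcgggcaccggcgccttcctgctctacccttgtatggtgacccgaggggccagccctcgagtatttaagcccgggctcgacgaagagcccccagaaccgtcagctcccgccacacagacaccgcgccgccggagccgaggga
Elk4: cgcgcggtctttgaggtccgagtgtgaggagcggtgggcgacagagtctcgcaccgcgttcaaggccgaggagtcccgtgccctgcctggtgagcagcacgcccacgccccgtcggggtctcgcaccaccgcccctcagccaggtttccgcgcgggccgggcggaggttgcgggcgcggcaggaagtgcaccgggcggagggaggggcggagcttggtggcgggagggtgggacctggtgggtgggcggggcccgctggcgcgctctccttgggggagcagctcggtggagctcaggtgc

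GGGAA or its complement occurred once in the Nab1 window, once in the Nab2 window and at 2 places in the Dusp2 window. The Elk4 window shown held 0, although its peaks covered 223, 300 and 300 bases in WT replicates 1, 2 and 3, while the other Elk4 window held 3 and the Cish window 1. Among 592 promoter windows with peaks of 2 or more lists, 69.1% held the letters, and 62.5% of the 31556 windows with no peak did. TGACG or CGTCA was in 33.6% of the windows with peaks and in 20.2% of those without. Windows of 1 gene can overlap, so they are not independent, and base composition was not matched.

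Upstream of the EGR genes, 3 of 6 genes of SRF and its partners had a shared region, beside 4.35% of protein-coding genes. Elk4, a ternary complex factor, had it in all lists, with fold enrichments of 3.91, 4.25 and 4.26 at percentiles of 8.32, 30.9 and 24.2, and the authors also named Gm29103 for these peaks. Elk3, of the same family, had 4.10 and 4.41 in WT replicates 2 and 3. Mrtfb, an actin-regulated SRF co-activator, had 4.94 and 4.14 in replicates 2 and 3. Srf, Elk1 and Mrtfa had no peak. Like those at Egr1, the values at Elk3 and Elk4 lay under the median of each list.

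In the ERK cascade, 2 of 9 genes had a shared region, both for kinases, beside 4.35% of protein-coding genes. Map2k1, which encodes MEK1, had fold enrichments of 7.64 and 8.00 in WT replicates 2 and 3, at percentiles of 91.3 and 92.2. Mapk3, which encodes ERK1, had 5.63, 4.17 and 5.78 in replicates 1, 2 and 3, at percentiles of 67.6, 27.8 and 69.4. The RAS and RAF genes and Map2k2 had no peak.

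Genes that damp ERK signalling had a shared region at 4 of 9, beside 4.35% of protein-coding genes. Dusp2, a nuclear MAP kinase phosphatase, had fold enrichments of 4.62, 5.12 and 5.75 in WT replicates 1, 2 and 3, over its promoter. Dusp6, a cytoplasmic ERK phosphatase, had 3.89 and 4.72 in replicates 2 and 3, and the authors placed these peaks 1551 and 1305 bp from the gene. Spred1 had 3.70 and 5.48, and Spred2 6.56 and 5.12, in the same lists, and both encode inhibitors of RAS to ERK signalling. By the authors' distances, the Spred1 peaks lay 325 and 0 bp from the gene and the Spred2 peaks 3633 and 3684 bp. Dusp4, Dusp5 and Spry2 had a peak in 1 list, and Dusp1 and Spry1 in none.

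Among 11 genes of calcium and cAMP inputs, which drive NR4A genes, 2 had a shared region, beside 4.35% of protein-coding genes. Creb1, which encodes the factor that binds the cAMP response element, had 3.88 and 4.04 in WT replicates 1 and 2, at percentiles of 7.15 and 22.9. Crtc2, which encodes a CREB co-activator, had 5.00 and 4.88 in replicates 2 and 3. The Mef2 genes of the list had no peak, and Nfatc1 and Crtc3 had one in replicate 2 only. None of the 3 Rxr genes, whose products pair with NR4A1 and NR4A2, had a shared region, and Rxra had a peak in replicate 2 only.

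Other immediate early genes had a shared region at 3 of 15, beside 4.35% of protein-coding genes. Ier2 had 4.06 and 7.69 in WT replicates 2 and 3, Zfp36l2, an RNA decay factor gene, had 4.75 and 4.79 in replicates 1 and 2, and Myc had 4.75 and 3.94 in replicates 2 and 3. Btg1, Btg2 and Cd69 had a peak in replicate 2 only. Of 7 FOS and JUN genes, Junb was reached in all lists, at 3.98, 4.82 and 4.87, and Fos in replicates 2 and 3, at 5.07 and 5.68. The authors placed the Fos peaks 8836 and 8730 bp from the gene. Fosl2 and Jund had peaks in replicate 2 only.

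Of 16 genes listed as targets of EGR and NR4A factors or as restraints on lymphocytes, 3 had a shared region, beside 4.35% of protein-coding genes. Whether any of them responds to these factors in NK cells was not measured. Cish, whose product CIS damps cytokine signals, had 12.7, 17.6 and 13.8 in WT replicates 1, 2 and 3. These were the highest values among the 21 listed genes with a shared region. Socs1, of the same inhibitor family, had 5.90 and 6.16, and Tox, a chromatin factor gene tied to lymphocyte exhaustion, had 6.27 and 6.28, in replicates 2 and 3. The receptor genes Pdcd1, Havcr2, Lag3 and Tigit had no peak, and Dgkz, which encodes a diacylglycerol kinase, had one in replicate 3 only.

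**Figure D4:**
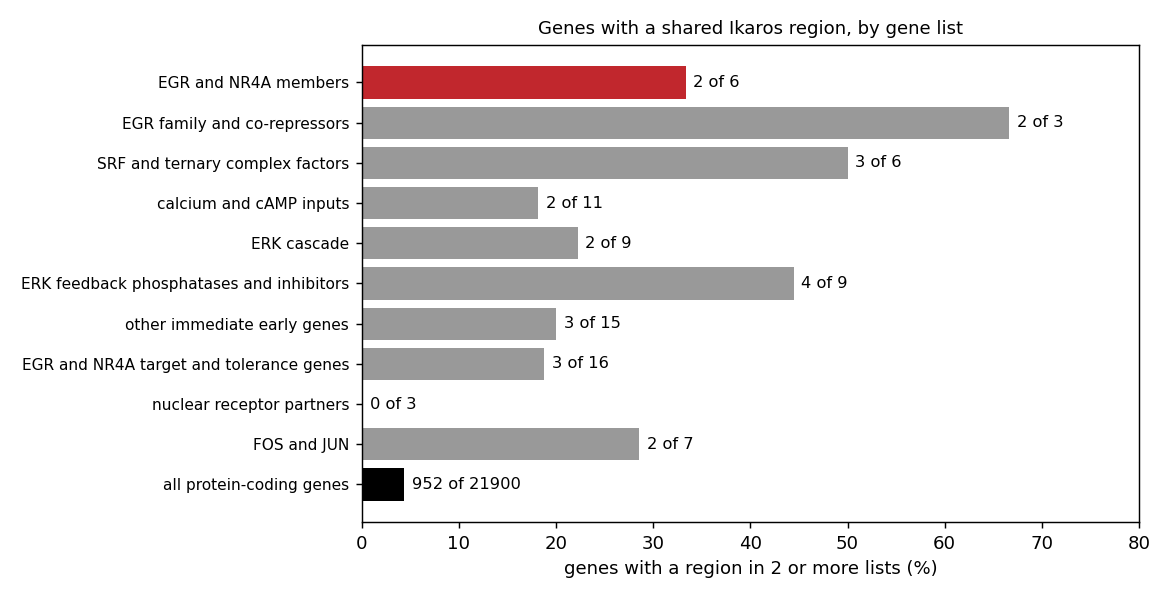
Bars give the percentage of genes in each list that had a shared region, meaning one with peaks of 2 or more replicates, with the count beside each bar; the top bar is the 6 EGR and NR4A genes (2 of 6) and the bottom bar all protein-coding genes (952 of 21900). The lists are small, so a single gene with a shared region lifts any upper bar above the bottom one. They were also chosen with earlier results known, and the Rxr genes had 0 of 3.

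Marker genes of NK cells and of other cells that a spleen culture could hold were looked up in the same way, although a binding peak does not measure expression. A shared region was found at 1 of 7 NK genes (Klrb1c), 1 of 6 T cell genes (Trac), 0 of 5 B cell genes and 0 of 5 myeloid genes. The share of all protein-coding genes was 4.35%. The identity of the cells was not tested by these lists.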

How the data were processed

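Ikaros ChIP-seq of mouse splenic NK cells was examined in 3 WT libraries, and the total is 6 samples with 3 KO libraries that were not analysed here. Per the labels' protocols, fixation was with 2% formaldehyde, fragments measured 100 to 200 bp, and each precipitation took 2 µg of antibody. The authors' tools were MACS2, Subread, SAMtools, Picard and edgeR 3.20.0, with build mm10, per the submitters' processing notes; roles, control library, thresholds and gene annotation are not given in the sources used here. Deposited values for a peak are its fold enrichment (a linear ratio), −log10 p and −log10 q, and a distance to a named gene, per the file headers. Lists were called per library. By the sample's description and title, the list of replicate 3 is the one whose peaks carry number 4.

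Rows were reduced to 1 per peak. Gene names were matched to RefSeq protein-coding genes by symbol or unique synonym (2083 of 2145, 97.1%), and unmatched names were left out of gene counts. Spans came from the RefSeq table of GRCm38.p6, the same build, which has no strand or exons. Members, lists and motifs were chosen with earlier results of these data known, so counts are given beside those of all genes, with no test. All 6 members are named, pathway genes where 2 or more lists share a region, and the 3 genes most like each member by mean percentile difference; 1 item is not reported here. Merging was tested on simulated lists of well-separated sites, and ranks on a short fixed set of values without ties. Alternatives were gene windows of 10 and 50 kb, the nearest gene, −log10 q of 5 and 10, equal list lengths, a stricter overlap, other ranks and leaving out each replicate. Software was pandas 2.3.3, matplotlib 3.10.9, SciPy 1.17.1 and NumPy 2.4.6 under Python 3.11.15.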

Additional observations from a re-analysis of the deposited data

How the results depend on the processing

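No paired analysis was possible because values of KO libraries were not used here and no groups were compared. Depth is unknown, so it cannot be said which sites were missed. Stricter thresholds and shorter lists leave fewer peaks by construction. Leaving out a list can only lower or keep the counts for 2 or more lists, and widening a window can only add peaks to a gene. For other changes the cause was not tested. With −log10 q minimums of 5 and 10, members with a peak numbered 0 in each list and 0 in shared regions, protein-coding genes with a shared region 408 and 136, and pathway genes 8 and 3. With equal list lengths, members were 1, 0 and 0 in WT replicates 1, 2 and 3 and 0 in shared regions, with 510 protein-coding and 10 pathway genes. Within 50 kb of the gene, 2 members had a peak in replicate 1 and 2 had a region in all lists, with 2660 protein-coding genes. Without 1 replicate, members with a region in 2 or more lists ranged from 1 to 2, members with a region in all remaining lists from 1 to 2, protein-coding genes from 466 to 852 and pathway genes from 7 to 19. Within 10 kb or by the nearest gene, the member, protein-coding and pathway counts stayed within 1.5 times, as did the counts of shared regions with the stricter overlap, where peaks per list were not recounted; Egr1 and Nr4a3 were the 2 shared members in each. Ranked by −log10 q, the Nr4a3 percentiles were 38.7 and 32.9 in replicates 2 and 3, and by −log10 p they were 38.6 and 32.9; Egr1 percentiles moved by less than the spread between lists.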
